A study of Mus musculus with 2 samples.

Results

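HOX genes are the homeobox genes *Hoxa* to *Hoxd*, and 38 of them were followed in RNA-Seq counts of mouse primary rib chondrocytes and primary dermal fibroblasts. The members were 38 listed rows, of 24421 in the count table, named *Hoxa*, *Hoxb*, *Hoxc* or *Hoxd* with a number, with 10 genes each in clusters A and B and 9 each in clusters C and D. The rule goes by gene name and uses no measured value, although the gene family was picked with earlier results of these data known. The study asked how *Sox9* is regulated in chondrocytes, and dermal fibroblasts were its control cells. There was 1 library of each cell type, both from newborn mice, with no genotype, transgene or treatment given for either. The chondrocytes came from collagenase-digested rib cartilage and were used within 2 passages. The dermal fibroblasts came from collagenase-digested dorsal skin, and their passage is not given in the sources used here. Nor is the number of animals behind either library, their strain or the level along the back from which the skin was taken.

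HOX genes encode DNA-binding homeodomain proteins. In mammals they lie in 4 clusters, and genes at the same place in different clusters form paralog groups numbered 1 to 13 from the 3′ end of a cluster to its 5′ end. In the embryo, genes of low number are switched on earlier and nearer the head, and genes of high number later and nearer the tail and in the distal limb. Loss of HOX genes alters the identity of vertebrae and ribs. Fibroblasts are known to keep HOX patterns that reflect the body site they came from. HOX proteins bind DNA together with the TALE homeodomain proteins of the Pbx and Meis families, and their loci are kept silent or active by Polycomb and Trithorax group proteins.

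The counts summed to 18788599 reads for the chondrocytes and 17563724 for the dermal fibroblasts, and the 10 most abundant genes of each library held 18.6% and 9.09% of them. Levels are given as CPM (counts scaled to 1e+06 per library) after TMM scaling between the libraries, and counts under 3 were set to 3 for folds. A gene was called higher where its fold was over 2. Brackets give 95% counting intervals, which cover counting error only, since reads are not independent molecules and there was no replicate of either cell type. Every fold below therefore compares these libraries and has no replicate check and no p-value. Across the 15616 rows with over 3 counts in either library, 12.1% were over 2-fold higher in chondrocytes and 15.8% in dermal fibroblasts. The labelled cell types were checked against markers. All 14 chondrocyte markers in the table were over 2-fold higher in chondrocytes, with *Col2a1* at 1447098 counts against 0, and 11 of 12 dermal fibroblast markers were over 2-fold higher in dermal fibroblasts.

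Upstream sequences are shown for 5 members that lie on either side of the contrasts described below, from clusters A and D. RefSeq promoters were in the table for 22 of the 38 members, and the choice of these 5 was made after their values were seen. Each line gives the 250 bases before the annotated start of the gene, in its 5′ to 3′ direction, on build GRCm38.p6. Capitals mark matches, on either strand, to a Pbx-Hox bipartite site, a caudal type site, a CCAAT box or a TATA box, whose letters are given after the sequences.
*Hoxa5* (chr6:52204588-52204837, minus strand): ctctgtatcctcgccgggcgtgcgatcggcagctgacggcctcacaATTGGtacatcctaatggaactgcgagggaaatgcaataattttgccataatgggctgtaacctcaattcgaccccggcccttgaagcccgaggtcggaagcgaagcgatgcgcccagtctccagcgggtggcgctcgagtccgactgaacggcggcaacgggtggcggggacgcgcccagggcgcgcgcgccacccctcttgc
*Hoxa7* (chr6:52218574-52218823, minus strand): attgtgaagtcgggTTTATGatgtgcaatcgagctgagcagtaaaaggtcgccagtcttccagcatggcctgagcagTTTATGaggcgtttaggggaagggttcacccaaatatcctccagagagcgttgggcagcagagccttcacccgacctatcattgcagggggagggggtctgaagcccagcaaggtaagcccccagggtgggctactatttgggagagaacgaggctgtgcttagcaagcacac
*Hoxa9* (chr6:52227371-52227620, minus strand): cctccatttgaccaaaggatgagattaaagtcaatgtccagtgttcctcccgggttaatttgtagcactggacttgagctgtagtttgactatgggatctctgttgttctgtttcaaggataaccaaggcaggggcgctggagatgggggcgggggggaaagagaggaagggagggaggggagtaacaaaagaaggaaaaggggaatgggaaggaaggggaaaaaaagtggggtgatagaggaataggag
*Hoxd4* (chr2:74721728-74721977, plus strand): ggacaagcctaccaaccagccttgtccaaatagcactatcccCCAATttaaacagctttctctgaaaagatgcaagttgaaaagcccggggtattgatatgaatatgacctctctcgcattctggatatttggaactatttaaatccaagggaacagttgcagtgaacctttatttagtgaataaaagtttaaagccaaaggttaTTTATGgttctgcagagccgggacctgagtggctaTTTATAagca
*Hoxd8* (chr2:74704365-74704614, plus strand): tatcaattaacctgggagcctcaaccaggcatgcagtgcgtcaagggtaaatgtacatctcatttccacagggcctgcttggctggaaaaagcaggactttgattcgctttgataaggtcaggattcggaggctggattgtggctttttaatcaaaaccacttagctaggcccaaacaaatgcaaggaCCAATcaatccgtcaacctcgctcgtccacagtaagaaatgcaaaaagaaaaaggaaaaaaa
Of the 22 HOX promoters, 3 held the Pbx-Hox bipartite site TGATNNAT on either strand, which was in 7.91% of all 27025 promoters of the same length. The caudal type site, searched as TTTATG, was in 5 of the 22, against 11.1% of all promoters. For the TATA box, searched as TATAAA, the match was in 3 of the 22 HOX promoters and in 12.97% of all. The CCAAT box was in 13 of the 22, against 34.5% of all promoters. The motifs shared no base with each other in the sequences shown. The *Hoxa7* sequence held the caudal type letters at 2 places, the *Hoxd4* sequence at 1, and the *Hoxa9* sequence held none of the 4 motifs in this window. The G and C content of the HOX promoters had a median of 56.8%, with a range of 40.4% to 80.0%, against a median of 52% over all promoters. A match of letters is a description and does not show that a factor binds there.

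HOX transcripts were a small part of both libraries, 0.0224% of the counts in chondrocytes and 0.0293% in dermal fibroblasts. At least 10 counts were reached by 25 of the 38 genes in chondrocytes and by 28 in dermal fibroblasts. No count was seen for 8 genes in chondrocytes and for 5 in dermal fibroblasts. In all, 31 of the 38 had over 3 counts in either library. Of these, 6 were over 2-fold higher in chondrocytes, where the share over all genes was 12.1%, and 18 were over 2-fold higher in dermal fibroblasts, where it was 15.8%. The other 7 were within 2-fold. Of the 18, 2 had under 10 counts in both libraries. Also among the 18, *Hoxa11*, *Hoxc11*, *Hoxd10* and *Hoxd11* had 0 counts in chondrocytes. They passed the filter only through dermal fibroblasts, so they could be called in that direction alone. For all 6 of the first set and 11 of the 18 in the other, the whole counting interval lay beyond 2-fold, against 6.67% and 9.9% of all genes. The median log2 fold of the 31 genes was -1.18, chondrocytes over dermal fibroblasts, and that of all 15616 rows was 0.0036. The HOX median falls on genes with 0 counts in chondrocytes and so is set by the floor: it was -1.42 with a floor of 1 count, -0.70 with a floor of 10 and -1.22 over genes with at least 10 counts, alternatives chosen after seeing the data. Summed over the 38 genes the libraries were closer, at 4200 counts for the chondrocytes against 5153, a fold of 1.19 in favour of dermal fibroblasts (1.15 to 1.24).

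**Figure D1:**
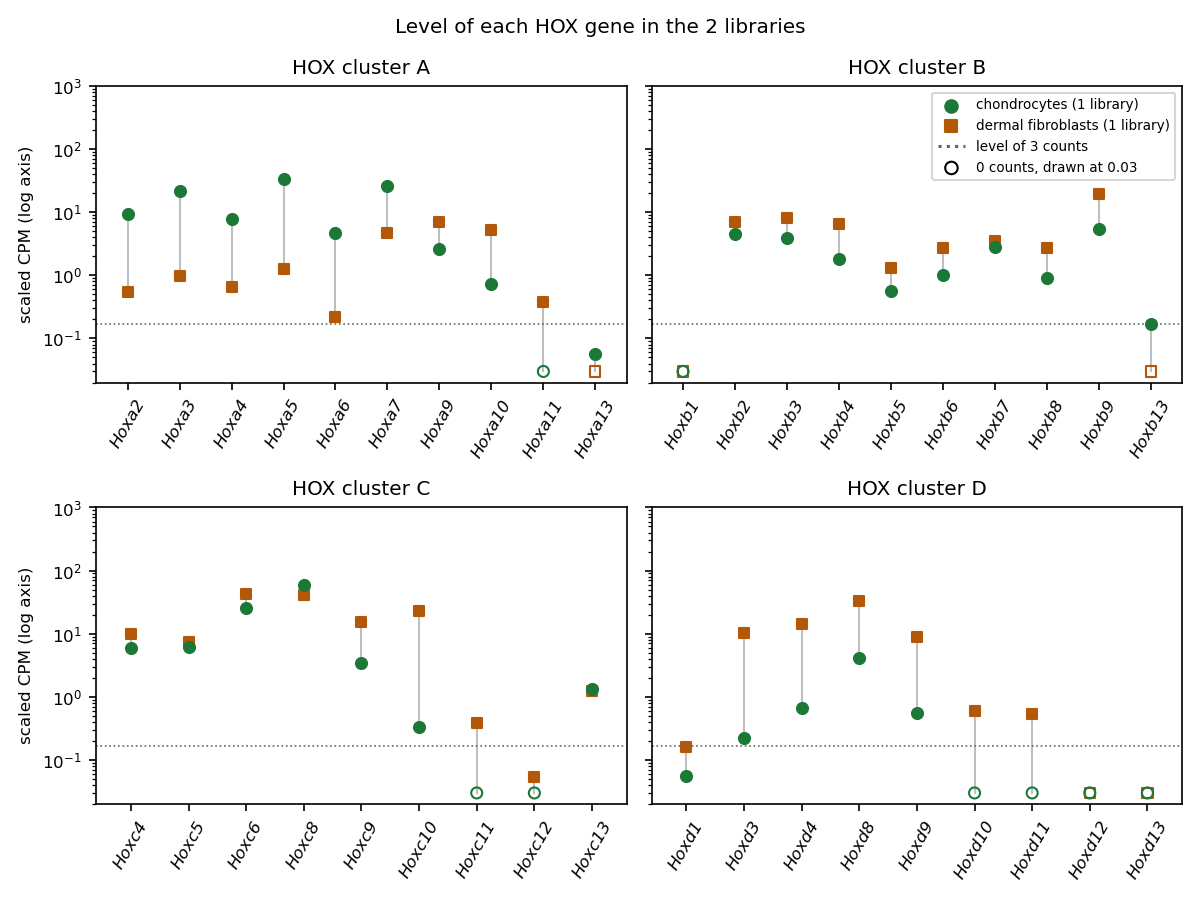
TMM-scaled CPM (log axis) of each of the 38 HOX genes, in 1 chondrocyte library (green circles) and 1 dermal fibroblast library (orange squares), by cluster. Open symbols mark 0 counts and the dotted line the level of 3 counts. In cluster A the green points lie above the orange ones from *Hoxa2* to *Hoxa7* and below them from *Hoxa9* to *Hoxa11*, and in cluster D the orange points lie above for all 6 genes with over 3 counts. Of these, *Hoxa11*, *Hoxd10* and *Hoxd11* had 0 counts in chondrocytes.

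Cluster A, on chromosome 6, was split within itself. Its 6 members of groups 2 to 7 were all over 2-fold higher in chondrocytes, while *Hoxa9* and *Hoxa10* were over 2-fold higher in dermal fibroblasts. *Hoxa11* was called with them on 0 and 7 counts alone, and with a floor of 10 counts its fold was 1.03. *Hoxa2*, which patterns the hindbrain and the branchial arches, had 167 chondrocyte counts and 10 fibroblast counts. That was 9.32 against 0.543 CPM, a 17.2-fold difference (9.10 to 36.4). *Hoxa3*, needed for the thymus and parathyroid, had 389 and 18 counts, or 21.7 and 0.978 CPM, and was 22.2-fold higher in chondrocytes (13.9 to 37.9). For *Hoxa4*, which acts in the cervical vertebrae, the counts were 139 and 12, or 7.75 and 0.652 CPM, a fold of 11.9 (6.60 to 23.6). *Hoxa5*, known for its roles in the lung and in the vertebrae between neck and thorax, had the highest level per kb in chondrocytes of the cluster A members. Its 599 and 23 counts were 33.4 and 1.25 CPM, a fold of 26.7 (17.7 to 42.5). *Hoxa6* had 85 and 4 counts, a fold of 21.8. *Hoxa7* had 472 and 87 counts, or 26.3 and 4.73 CPM, and its fold of 5.57 (4.42 to 7.09) was the smallest of these 6, with an interval below those of *Hoxa2*, *Hoxa3*, *Hoxa5* and *Hoxa6*.

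The next gene of the cluster, *Hoxa9*, a trunk and limb patterning gene also known for its part in leukaemia, was on the other side. Its counts were 47 in chondrocytes against 129, or 2.62 and 7.01 CPM, and was 2.67-fold higher in dermal fibroblasts (1.90 to 3.82). *Hoxa10*, which acts in the lumbar region, the limb and the uterus, had 13 and 96 counts, a fold of 7.19. *Hoxa11*, a gene of the forearm and lower leg, had 0 and 7 counts, and *Hoxa13*, a gene of the hand and foot, had 1 and 0. Summed over groups up to 8, cluster A had 1851 and 154 counts and was 12.3-fold higher in chondrocytes (10.5 to 14.6). Summed over groups 9 to 13 it had 61 and 232 counts and was 3.70-fold higher in dermal fibroblasts. No other cluster held members called in both directions.

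Cluster D, on chromosome 2, was higher in dermal fibroblasts at every one of its 6 members with over 3 counts, and for each of the 6 the interval lay beyond 2-fold. Among the 6, *Hoxd10* and *Hoxd11* had 0 counts in chondrocytes. They passed the filter only through dermal fibroblasts, so their direction was fixed by it and adds no support. *Hoxd3*, a gene of the first neck vertebra, had 4 counts in the chondrocyte library against 186. Its levels were 0.223 and 10.1 CPM, a fold of 45.3 (17.4 to 168). *Hoxd4*, which acts in the vertebra after it, had 12 and 263 counts, or 0.669 and 14.3 CPM, a fold of 21.3 (12.01 to 41.8). These 2 genes share 1725 bases of exon on the same strand in GENCODE vM1, 67.4% of the exon bases of *Hoxd4*, so their reads could not be fully told apart. *Hoxd8* had the most counts of the cluster, 74 and 600, or 4.13 and 32.6 CPM, and was 7.89-fold higher in dermal fibroblasts (6.19 to 10.2). *Hoxd9*, expressed in trunk and limb, had 10 and 162 counts, or 0.558 and 8.80 CPM, a fold of 15.8 (8.36 to 33.5). *Hoxd10*, a limb gene, had 0 and 11 counts, a fold of 3.57 in favour of dermal fibroblasts with the 0 set to the floor of 3 counts. *Hoxd11*, also of the limb, had 0 and 10 counts, a fold of 3.25 by the same floor. Their counting intervals began at 2.44 and 2.18, and with a floor of 10 counts neither gene was over 2-fold apart. *Hoxd1* had 1 and 3 counts, and *Hoxd12* and *Hoxd13*, the genes of the digits, had 0 in both. The summed counts of cluster D were 101 and 1235, a fold of 11.9 (9.71 to 14.7).

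**Figure D2:**
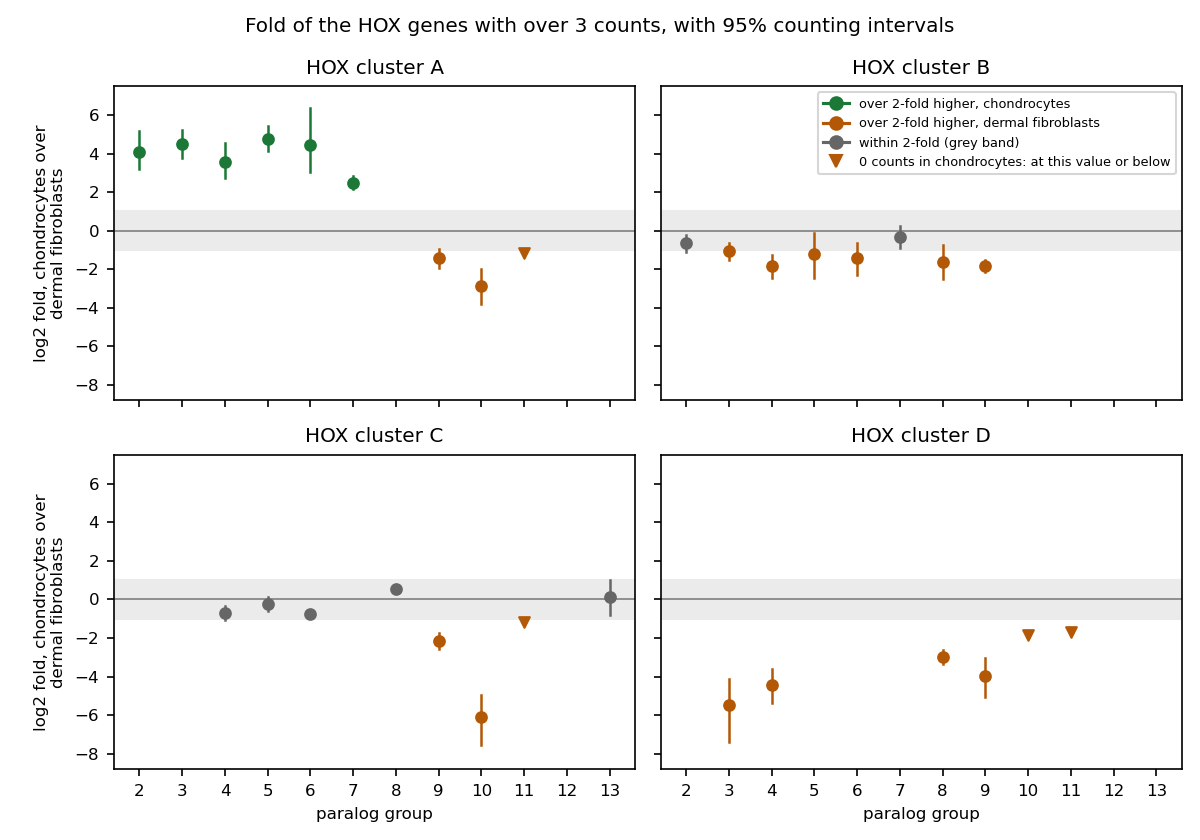
Log2 fold, chondrocytes over dermal fibroblasts, of the 31 HOX genes with over 3 counts, by paralog group in a panel for each cluster. Bars are 95% counting intervals, the grey band is within 2-fold, and triangles are genes with 0 counts in chondrocytes, drawn at their fold against the floor of 3 counts, with no interval shown. Cluster A crosses from above the band to below it between groups 7 and 9, cluster D lies below it throughout, and cluster C is within it from groups 4 to 8 and at group 13.

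Cluster C, on chromosome 15, held the HOX genes with the most counts in both libraries, and 5 of its 8 members with over 3 counts were within 2-fold. *Hoxc8*, which patterns thoracic ribs and the motor neurons of the forelimb, had 1043 counts in the chondrocyte library against 748. That was 58.2 and 40.6 CPM, a fold of 1.43 in favour of chondrocytes (1.30 to 1.58). *Hoxc6*, of the thoracic region, had 456 and 796 counts, or 25.4 and 43.2 CPM, a fold of 1.70 in favour of dermal fibroblasts (1.51 to 1.91). *Hoxc4* had 108 and 180 counts, or 6.03 and 9.78 CPM, and was 1.62-fold higher in dermal fibroblasts (1.27 to 2.08). For *Hoxc5* the counts were 112 and 135, or 6.25 and 7.33 CPM, a fold of 1.17 (0.907 to 1.52), an interval that includes 1. *Hoxc13*, known for its role in hair and nail, had 24 and 23 counts, a fold of 1.07, chondrocytes over dermal fibroblasts (0.579 to 1.99), which was 0.975 with library totals, so no direction can be read.

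In cluster C the members over 2-fold apart with at least 10 counts were those of groups 9 and 10. *Hoxc9*, which acts in the thoracic region, had 61 and 281 counts, or 3.40 and 15.3 CPM, a fold of 4.49 in favour of dermal fibroblasts (3.39 to 6.02). *Hoxc10* (chromosome 15, 102966796 to 102971898), a gene of the lumbar region and hindlimb, had 6 counts in the chondrocyte library against 416. Its levels of 0.335 and 22.6 CPM gave a fold of 67.5 (30.8 to 185), the largest fold of the 31 genes with over 3 counts. *Hoxc11* had 0 and 7 counts and *Hoxc12* had 0 and 1. Over groups up to 8 the cluster C sums were 1719 and 1859 counts, a fold of 1.05 (0.986 to 1.12). Over groups 9 to 13 they were 91 and 728, a fold of 7.79 in favour of dermal fibroblasts. That fold came from groups 9 to 10, with 67 and 697 counts and a fold of 10.1, since groups 11 to 13 had 24 and 31 counts, a fold of 1.26 whose interval includes 1.

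Cluster B, on chromosome 11, had 8 members with over 3 counts, 6 of them over 2-fold higher in dermal fibroblasts and none in chondrocytes. For 2 of them, *Hoxb4* and *Hoxb9*, the interval lay beyond 2-fold. *Hoxb9*, which acts in the thoracic skeleton, had 97 and 354 counts, or 5.41 and 19.2 CPM, a fold of 3.55 (2.83 to 4.50). *Hoxb4*, known for its effect on blood stem cells, had 33 and 122 counts, or 1.84 and 6.63 CPM, a fold of 3.599 (2.43 to 5.46). *Hoxb3* had 70 and 151 counts, or 3.91 and 8.20 CPM, a fold of 2.10 (1.57 to 2.83), which was under 2 with *Actb* scaling. *Hoxb2*, a hindbrain gene, had 80 and 130 counts, or 4.46 and 7.06 CPM, and was 1.58-fold higher in dermal fibroblasts (1.19 to 2.12).

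The other members of cluster B had few counts. *Hoxb8* had 16 and 50 counts, a fold of 3.04, *Hoxb6* had 18 and 50, a fold of 2.70, and *Hoxb5* had 10 and 24, a fold of 2.34, all in favour of dermal fibroblasts. *Hoxb7* had 50 and 64, a fold of 1.25. *Hoxb7* and *Hoxb8* share 1069 bases of exon on the same strand. *Hoxb1*, the hindbrain gene of group 1, had 0 in both libraries, and *Hoxb13*, a gene of the tail bud and prostate, had 3 and 0. The cluster B sums were 377 and 945 counts, a fold of 2.44 in favour of dermal fibroblasts.

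In the GENCODE vM1 models, exons of 12 of the 38 genes share bases with another gene on the same strand, 7 share bases with a gene on the other strand, and 17 share with either. The libraries were stranded, but the strand setting of the counting is not given in the sources used here. For *Hoxa3*, 1647 exon bases, and for *Hoxa7*, 586, lie opposite noncoding transcripts, and reads of these could not be told apart if strand was not used. The largest opposite-strand shares of exon bases were 49.4% for *Hoxb2*, 38.6% for *Hoxa11* and 37.9% for *Hoxb3*. The same limit holds for their folds, among them the 2.10-fold call of *Hoxb3*.

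The make-up of the HOX counts differed between the libraries. Cluster A held 45.5% of them in chondrocytes (44.0% to 47.0%) and 7.49% in dermal fibroblasts (6.79% to 8.24%). Cluster D went the other way, with 2.40% in chondrocytes (1.96% to 2.91%) and 23.97% in dermal fibroblasts (22.8% to 25.2%). Cluster B held 8.98% and 18.3%. Cluster C was large in both, with 43.1% and 50.2%. The 5 HOX genes with the most counts, *Hoxc8*, *Hoxa5*, *Hoxa7*, *Hoxc6* and *Hoxa3* in chondrocytes, held 70.5% of that library's HOX counts. In dermal fibroblasts *Hoxc6*, *Hoxc8*, *Hoxd8*, *Hoxc10* and *Hoxb9* held 56.5%. *Hoxc6* and *Hoxc8* were in both sets.

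By place along the clusters, groups 9 to 13 held 6.24% of HOX counts in chondrocytes (5.53% to 7.01%) and 29.1% in dermal fibroblasts (27.8% to 30.3%). Their summed counts were 262 and 1497, a fold of 5.56. Most of this lay in groups 9 to 10, at 5.57% and 28.1% of HOX counts. Groups 11 to 13 held 0.667% and 0.931%, with 28 and 48 counts, a fold of 1.67 in favour of dermal fibroblasts (1.03 to 2.76). Groups 4 to 8 held most of the counts in both, 76.8% and 61.3%. The share of groups 9 to 13 was higher in dermal fibroblasts within clusters A, B and C. It was 3.19% against 60.1% of cluster A counts, 26.5% against 37.5% of cluster B counts and 5.03% against 28.1% of cluster C counts. Within cluster D it was 9.90% against 14.8%, with intervals that overlap.

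**Figure D3:**
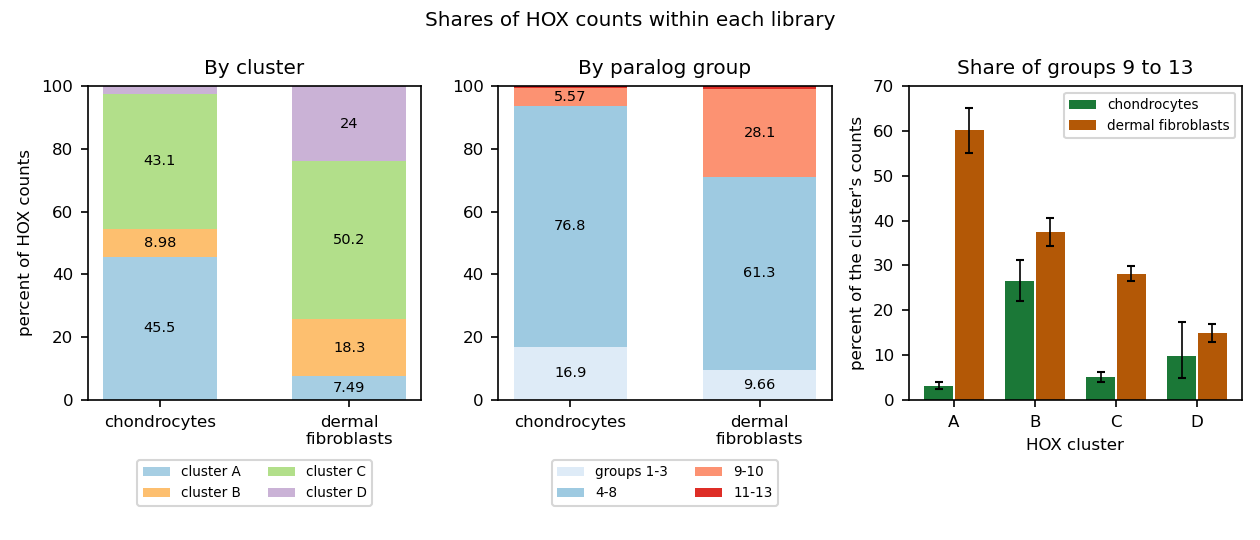
Percent of HOX counts by cluster (left) and by paralog group (middle) in each library, and percent of each cluster's counts in groups 9 to 13 (right, bars with 95% exact binomial intervals, 1 library of each cell type). Cluster A takes 45.5% in chondrocytes and 7.49% in dermal fibroblasts, and cluster D 2.40% and 23.97%.

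Within a paralog group, whose members are alike in sequence and partly stand in for each other, the shares of the counts often differed between the libraries. In group 3, *Hoxa3* held 84.0% of chondrocyte and 5.07% of fibroblast counts, *Hoxb3* held 15.1% and 42.5%, and *Hoxd3* held 0.864% and 52.4%. These are shares of counts, not set per length, and per kb of transcript *Hoxb3* was above *Hoxd3* in dermal fibroblasts, at 4.22 against 2.86 CPM per kb. By coding length, which is 1302 bases for both, the order was reversed, with *Hoxd3* at rank 13 and *Hoxb3* at rank 16. Their order thus depends on the length used. In group 4, *Hoxa4* held 47.6% and 2.08%, and *Hoxd4* held 4.11% and 45.6%. In group 5, *Hoxa5* held 83.1% in chondrocytes, and *Hoxc5* held 74.2% in dermal fibroblasts. In group 6, *Hoxc6* held most counts in both, at 81.6% and 93.6%. *Hoxc8* did so in group 8, at 92.1% and 53.5%, with *Hoxd8* at 6.53% and 42.9%. In group 9, *Hoxb9* had the largest share of counts in both, at 45.1% and 38.2%.

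The summed counts of a paralog group hid part of these differences. Group 3 sums were 463 and 355 counts, a fold of 1.34 in favour of chondrocytes. Yet all 3 of its members were over 2-fold apart with TMM scaling, though *Hoxb3* was not with *Actb* scaling. Groups 5 and 7 were higher in chondrocytes, with 721 and 182 counts, a fold of 4.07 (3.45 to 4.81), and with 522 and 151, a fold of 3.55 (2.96 to 4.28). Group 9 had 215 and 926 counts, and all 4 members were over 2-fold higher in dermal fibroblasts, with a summed fold of 4.19. Group 10, the group known to suppress ribs in the lumbar region, had 19 and 523 counts, a fold of 26.8 in favour of dermal fibroblasts, and all 3 members were called in that direction. With 0 counts in chondrocytes, *Hoxd10* could be called in that direction alone. Group 11 had 0 and 24 counts.

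Levels can be set against each other between genes only per length. As CPM per kb of the longest coding transcript, the order in chondrocytes began with *Hoxc8* at 25.3, *Hoxa5* at 17.8, *Hoxc6* at 15.2, *Hoxa7* at 12.97 and *Hoxa3* at 7.01. In dermal fibroblasts it began with *Hoxc6* at 25.8, *Hoxc8* at 17.7, *Hoxd8* at 12.4, *Hoxc10* at 11.8 and *Hoxb9* at 7.47. The same 5 genes led each library when coding length was used. *Hoxc10* ranked 4 of 38 in dermal fibroblasts and 26 in chondrocytes, and *Hoxa5* ranked 2 in chondrocytes and 21 in dermal fibroblasts. With 1 library each, the error of this order between neighbours was not estimated.

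**Figure D4:**
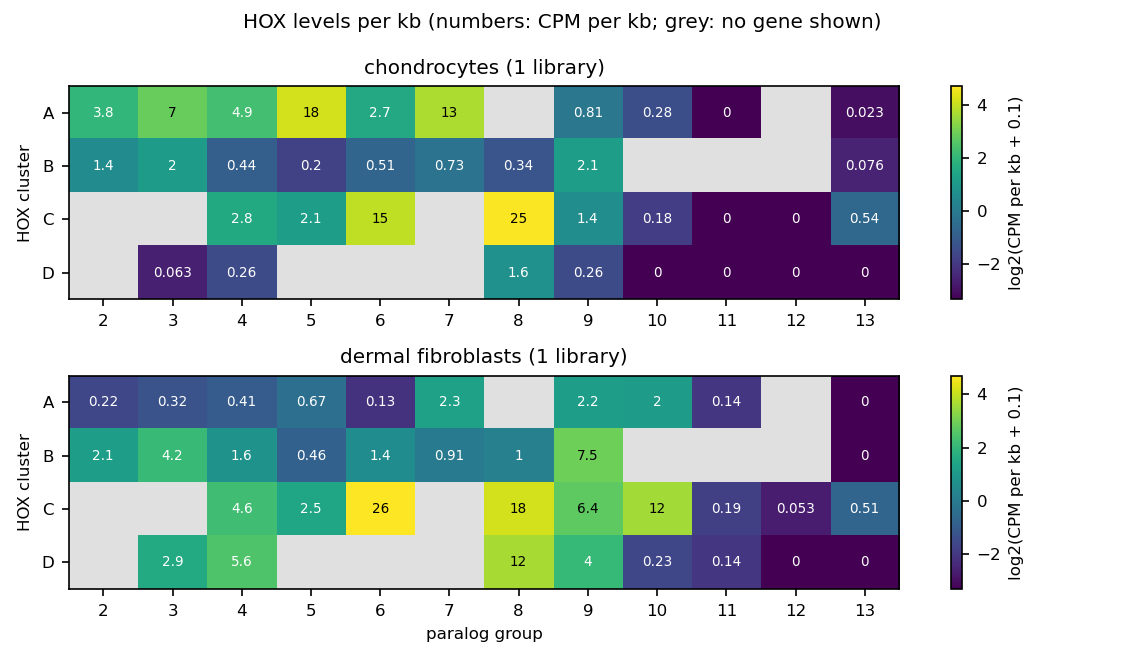
CPM per kb of transcript (numbers) of the HOX genes of groups 2 to 13, by cluster (rows) and paralog group (columns), in chondrocytes (top) and dermal fibroblasts (bottom), with colour on a log2 scale of CPM per kb plus 0.1. Values above 10 in chondrocytes are those of *Hoxa5*, *Hoxa7*, *Hoxc6* and *Hoxc8*, and in dermal fibroblasts those of *Hoxc6*, *Hoxc8*, *Hoxc10* and *Hoxd8*.

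Noncoding RNAs of the clusters were counted as a list. Of 28 listed, 19 were in the table and 9 had over 3 counts. The 4 over 2-fold higher in chondrocytes all lay in cluster A. The 5 over 2-fold higher in dermal fibroblasts lay in clusters B (3) and D (2). Over all genes, the shares called in those directions were 12.1% and 15.8%. Among the 5, a cluster D transcript at 0 and 18 counts passed the filter only through dermal fibroblasts. It could be called in that direction alone. Those at 2 and 9, 3 and 29, and 4 and 10 were at or near the floor of 3 in chondrocytes. With a floor of 10 counts, 3 of the 4 and 2 of the 5 were still over 2-fold. *Mira*, a transcript of the *Hoxa6* and *Hoxa7* region, had 511 and 74 counts, a fold of 7.09 in favour of chondrocytes (5.55 to 9.18). *Hotairm1*, transcribed from the 3′ end of cluster A, had 81 and 23, a fold of 3.62. *Hoxaas2*, an antisense transcript of cluster A, had 37 and 1 counts. *Gm53*, in cluster B, had 13 and 76, a fold of 5.69 in favour of dermal fibroblasts. The median log2 fold of the 9 was -1.28, but it was 0.04 with a floor of 10 counts and 0.29 over genes with at least 10 counts, so no direction is given for the list. *Hotair*, named outside the naming rule, had 0 and 2 counts.

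Transcripts of the proteins that act with HOX genes or on them were counted as lists. Over all genes, 27.9% were over 2-fold apart in either direction. Of 9 TALE cofactors, 2 were over 2-fold higher in chondrocytes, 1 in dermal fibroblasts and 6 were within 2-fold, with a median log2 fold of 0.22. With 9 genes this cannot be set apart from the share over all genes. *Pbx3* had 427 and 144 counts, a fold of 3.05 in favour of chondrocytes (2.52 to 3.70). *Meis2* had 932 and 474, a fold of 2.02 (1.81 to 2.26), which was under 2 with library totals or DESeq2 scaling. *Meis3* had 174 and 614, a fold of 3.44 in favour of dermal fibroblasts. All 30 Polycomb group genes were within 2-fold, apart from 1 that was over 2-fold higher in chondrocytes with *Actb* scaling, and their median log2 fold was 0.25. Among them *Ezh2*, which methylates histone H3 at lysine 27, had 937 and 529 counts. All 14 Trithorax group and H3K27 demethylase genes were within 2-fold as well, with a median log2 fold of 0.09.

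Regulators of axial identity were mixed. Of 13 listed, 10 had over 3 counts, with 5 over 2-fold higher in dermal fibroblasts, 1 in chondrocytes and 4 within 2-fold, while *Actb* scaling gave 3 and 2 in those directions. The shares over all genes in those directions were 15.8% and 12.1%. *Cyp26b1*, which degrades retinoic acid, had 1203 and 2593 counts, a fold of 2.10 in favour of dermal fibroblasts (1.96 to 2.25). With *Actb* scaling its fold was under 2. *Gdf11*, a signal for trunk-to-tail patterning, had 76 and 222, a fold of 2.84, and *Egr2* had 183 and 421, a fold of 2.24. *Rarg*, a retinoic acid receptor, had 3496 and 1936 counts, a fold of 1.85 in favour of chondrocytes, which was over 2 with *Actb* scaling. None of the 8 *Evx* and ParaHox genes had over 3 counts in either library.

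**Figure D5:**
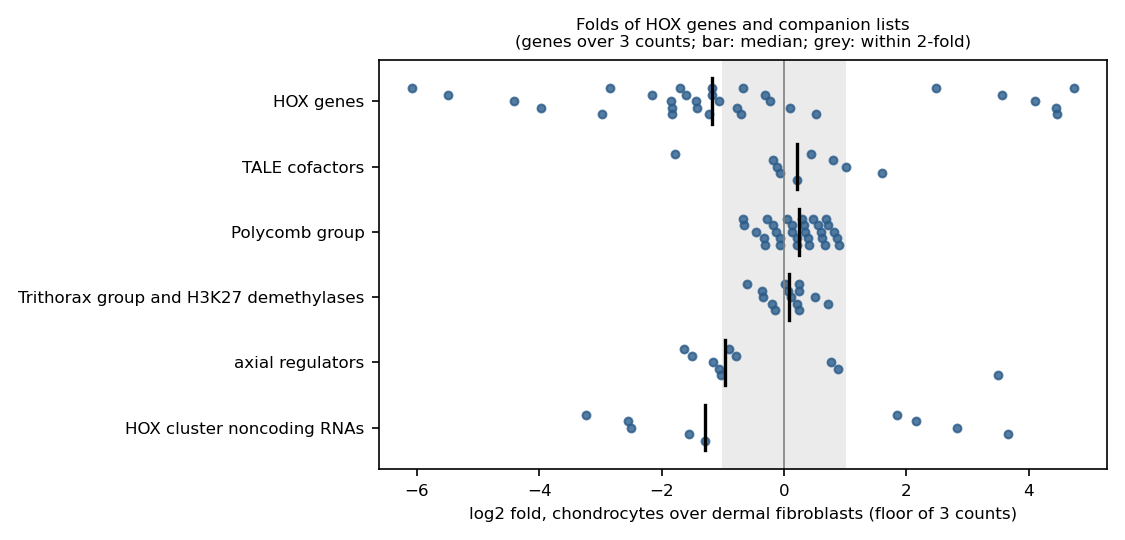
Log2 fold, chondrocytes over dermal fibroblasts, of the genes with over 3 counts in the HOX set and in 5 companion lists (1 point per gene, 1 library of each cell type). Black bars are medians and the grey band is within 2-fold. With TMM scaling, all 30 Polycomb and all 14 Trithorax group genes lie in the band (*Actb* scaling moves 1 Polycomb gene out), while 24 of 31 HOX genes lie outside it. Of the 24, *Hoxa11*, *Hoxc11*, *Hoxd10* and *Hoxd11* had 0 counts in chondrocytes and passed the filter only through dermal fibroblasts. Their place outside the band is set by the floor of 3 counts, and with a floor of 10 they were within 2-fold. Over all genes with over 3 counts, 27.9% were over 2-fold apart.

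Markers of other cell types moved with the libraries too. In these bulk libraries a different share of a cell type and a different amount of RNA per cell cannot be told apart. Summed keratinocyte markers were at 8.98 CPM in chondrocytes and 313 in dermal fibroblasts, with 5 of 8 over 2-fold higher in dermal fibroblasts and *Krt6a* at 0 counts in chondrocytes. Skeletal muscle markers were at 1779 and 1275 CPM, with 6 of 10 over 2-fold higher in chondrocytes and none at 0. Endothelial and macrophage markers were at 54.6 and 107 CPM, with 4 of 8 higher in dermal fibroblasts and none at 0. Melanocyte and Schwann markers were at 167 and 94.8 CPM, with 6 of 9 higher in dermal fibroblasts, 1 in chondrocytes and *Dct* at 0 in chondrocytes. The marker higher in chondrocytes was *S100b*, which cartilage also expresses, and without it the sums were 18.4 and 90.1 CPM. Neural markers were at 7.03 and 24.2 CPM, and *Elavl3* and *Rbfox3* were at 0 in both. Their part in the HOX differences was not tested, and the body level of the tissue taken cannot be told apart from the cell type.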

How the data were processed

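Expression was measured by RNA-Seq in primary rib chondrocytes and primary dermal fibroblasts (1 library each), prepared with a stranded mRNA kit. Per the labels and methods, the authors called bases with CASAVA 1.8.2 and mapped reads to mm10 with TopHat2 2.0.13, Bowtie2 2.2.3 and SAMtools 0.1.19, and they deposited raw read counts per gene. The counting program, its annotation and its strand setting are not given in the sources used here. Total counts per library were 18788599 and 17563724.

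Counts were scaled with TMM factors (edgeR 4.0.16, R 4.3.3). Folds were computed in Python 3.11.15 with numpy 2.4.6, scipy 1.17.1 and pandas 2.3.3, counts under 3 being set to 3. Intervals are 95% Clopper-Pearson and cover counting error only. No test was run, since each cell type had 1 library. The scripts were tested on simulated data. Gene and promoter positions are from RefSeq (GRCm38.p6), and transcript lengths and exon overlaps from GENCODE vM1 (NCBIM37). The exon coordinates of GENCODE vM1 were used only to find the overlaps, and no position given here comes from them. HOX genes with at least 100 counts in either library are given with counts, CPM, fold and interval, those with fewer but at least 10 with counts and fold, and the rest with counts. Of the lists, the 2 to 4 members with the most counts, and any over 2-fold with at least 100 counts, may be named. The members and lists were chosen with earlier results of these data known. There was 1 further row that matches the name pattern, which is not reported here and is in no sum, share or count of HOX genes. Alternatives were other scalings, floors, folds, filters and gene lengths.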

Additional observations from a re-analysis of the deposited data

How the results depend on the processing

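No paired analysis was possible because there was only 1 chondrocyte and 1 fibroblast library, and for the same reason no library could be left out. The 6 HOX genes called higher in chondrocytes numbered 6 to 8 under the alternatives run. The 18 called in dermal fibroblasts numbered 14 to 19 under the other scalings, floors and filter, 7 with a fold over 4 and 11 with the counting interval beyond 2-fold. Over all genes, the 1887 called in chondrocytes became 2876 with a pseudocount of 1, 713 with a fold over 4 and 1041 with the interval, and the 2468 called in dermal fibroblasts became 929 and 1546 with the last 2 settings. Of 248 alternative folds of the 31 HOX genes, 244 stayed inside the counting interval. *Hoxa11*, *Hoxc11* and *Hoxd11* went to 1.03 and *Hoxd10* to 0.93 with a floor of 10 counts, since that floor replaces nearly all of their counts. Library totals shifted every log2 fold by -0.14 and *Actb* by 0.12, so the cluster C sum, 0.719 as chondrocytes over dermal fibroblasts, was 0.654 and 0.782. The median of the cluster noncoding RNAs, -1.28, was 0.039 with a floor of 10 counts and 0.29 over genes with at least 10 counts. Of 216 alternative counts of list members called, 7 moved by over 1.5 times. Per kb of transcript, shares of HOX counts in chondrocytes were 7.19% for cluster B, 13.3% for groups 1 to 3, 81.5% for groups 4 to 8, 4.69% for groups 9 to 10 and 5.29% for groups 9 to 13. In dermal fibroblasts they were 15.7%, 56.8% and 20.6% for clusters B, C and D, 8.03% for groups 1 to 3 and 63.2% for groups 4 to 8. This list is partial: the per-kb shares of cluster A in both libraries and of cluster D in chondrocytes are not given here. For genes with under 10 counts in both libraries this depth allows no fold to be read.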
